A study of Mus musculus with 12 samples.

Results

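The livers of 6 mice of a Z line were compared with those of 6 mice of an M line, averaging over the presence and absence of doxycycline, which is the standing difference between the lines. The members are the probe sets of a 1-colour Affymetrix mouse array whose mean signal over the 12 arrays was 100 or more on a linear scale, the array's 64 control probe sets left out. They are 7083 of the 22626 probe sets tested, or 31.3%. Of these, 6457 carry 1 gene symbol and stand for 4689 genes, 315 carry several symbols and 311 carry none. Probe sets close to the limit were Dmtf1, with a mean of 100.1, just inside it, and Ptrhd1, with a mean of 99.99, just outside it.

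All animals were males of 6 weeks, and each array holds liver RNA of 1 mouse. M mice carry a hepatocyte-specific inducible transgene for the wild-type form of human alpha1-antitrypsin, and Z mice carry one for the mutant Z form. The 3 M off and 3 Z off mice had doxycycline in their drinking water at 40 µg/mL from conception onward, which is meant to keep the transgene silent, and the 3 M on and 3 Z on mice had none. Each transgene form was studied in mice named only as M or Z, so the form of the transgene, the site of its insertion and any difference in the genome around it cannot be told apart here, and the sources used here do not give the strain background. No probe set was assigned to the human transgene, so its level was not measured. Samples of a group are labelled as biological replicates, and p-values measure the spread between them.

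Alpha1-antitrypsin is a serine protease inhibitor of the serpin family that hepatocytes secrete in large amounts. The Z form folds poorly, polymerises and is kept back in the endoplasmic reticulum, where it is degraded by the proteasome and by autophagy. A difference between the lines that holds in both states is one seen with and without doxycycline.

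Hepatocyte markers dominated all arrays, with a summed signal of 101676 to 159306 in M and 106490 to 133351 in Z. Median signals lay between 38.7 and 47.0, and pairs of arrays correlated at 0.924 to 0.981 on the log2 scale. The 3 Z off arrays stood apart from the other 9 on the first principal component of the members, which held 23% of the variance. They scored 18.4 to 19.5, against -5.14 to 10.8 in Z on and -13.9 to -7.03 in M. All Z arrays thus also lay above all M arrays on this component. The 18S ribosomal RNA control signals of Z off were 93.9 to 373.0, against 914.2 to 1491.7 in Z on, 568.2 to 709.8 in M off and 226.6 to 767.5 in M on. Ratios of the 3' to the 5' control signal of actin were 2.18 to 2.53 in Z off and 2.44 to 5.16 in Z on. In M off they were 2.72 to 3.89 and in M on 3.09 to 4.38. The part of these differences between arrays in the results was not tested. Each called line difference of a member is therefore also given for the off and the on mice alone.

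Of the 7083 members, 7 were higher in Z and 7 lower at an adjusted p under 0.05 (limma, Benjamini-Hochberg over all 22626 probe sets), or 0.0988% in each direction and 0.198% together. At an unadjusted p under 0.05 there were 769, or 10.9%. The background over all 22626 probe sets was 0.0884%. In 132 members, or 1.86%, the 6 Z arrays did not overlap the 6 M arrays, with 54 (0.762%) higher and 78 (1.10%) lower in Z. Of the 14 called members, 13 were among these 132. The adjustment and the shared estimate of spread draw on the many dim probe sets. A fit on the 7083 members alone called 141 (1.99%), 67 (0.946%) of them higher and 74 (1.04%) lower, among them the same 14; 74 of the 141 parted all arrays. Differences in general were small: the median log2 difference of the members was -0.01, its median size was 0.14 and the median standard error was 0.15. Of the 132 that parted, 76 differed by less than 1.5-fold, 37 by 1.5- to 2-fold and 19 by 2-fold or more.

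**Figure D1:**
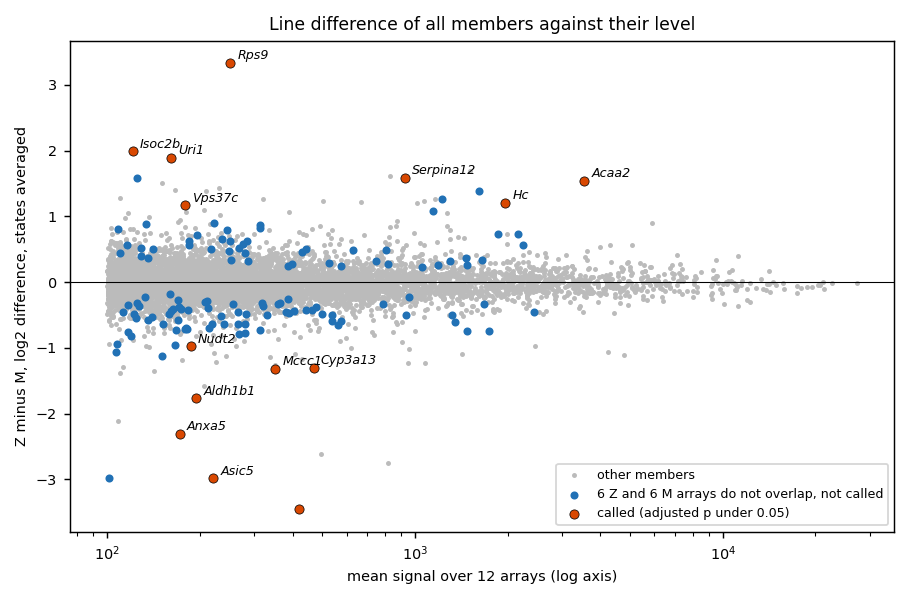
Log2 difference between the Z and the M line (vertical axis, states averaged) against the mean signal over 12 arrays (horizontal log axis) for the 7083 members. Orange points are the 14 called members, blue points the other members whose 6 Z and 6 M arrays do not overlap; most members lie near 0, and the called ones reach from -3.46 to 3.33.

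Some called members reached the limit of 100 through 1 line only. In 6 of the 14 the mean of the other line was under 100, as it was in 18 of the 132 members that part and in 318 of all 7083. These 6 were Rps9, Uri1 and Isoc2b, with the low mean in M, and Asic5, Aldh1b1 and Anxa5, with the low mean in Z. A member kept through the line where it is high is likely to differ, and a low signal cannot be told from background without detection calls. For these 6 the log2 difference is given as fitted, with no fold, and its size is uncertain. The same caution applies to probe set 1420062_at. Its Z mean of 101.75 lay above 100 only through Z on replicate 3, at 378.2, and its Z median was 49.6.

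Among the genes higher in Z was Acaa2. It encodes the mitochondrial thiolase that carries out the last step of fatty acid beta-oxidation. Probe set 1428146_s_at gave signals of 1833.9, 1846.4 and 1709.3 in M off, 1765.7, 1739.5 and 1928.8 in M on, 5347.6, 5512.5 and 5197.3 in Z off, and 6317.8, 4208.1 and 5096.9 in Z on. Every Z array exceeded every M array by a wide margin, and the off and on mice of each line overlapped. The log2 difference was 1.54 ± 0.13 (SE, n = 6 against 6), or 2.91-fold, with an adjusted p of 0.00338 (limma). It was 1.58 in the off mice and 1.51 in the on mice. The gene's other probe sets behaved otherwise and are described below.

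Hc encodes complement component C5, from which the terminal attack complex is started. Its signals were 1349.4, 1176.7 and 918.8 in M off, 1131.1, 1234.3 and 1243.0 in M on, 3734.8, 2506.6 and 3570.1 in Z off, and 2188.4, 2091.7 and 2473.1 in Z on. The lines did not overlap, and the Z off mice were the highest. The log2 difference was 1.20 ± 0.15 (SE, n = 6 against 6), or 2.30-fold, with an adjusted p of 0.0223 (limma), at 1.51 off and 0.90 on. The call held without Z off replicate 2 but was lost without any 1 of the other 11 arrays, at adjusted p-values of 0.0525 to 0.0750 and differences of 1.13 to 1.27. Replicate number as a further term in the model also ended the call (adjusted p 0.0928, limma).

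Isoc2b, which encodes a protein with an isochorismatase domain, gave 41.3, 37.1 and 67.3 in M off, 61.4, 52.8 and 37.6 in M on, 189.9, 221.9 and 182.7 in Z off, and 191.2, 155.8 and 214.1 in Z on. Its M signals lay near the array median and its Z signals well above it. The log2 difference was 1.99 ± 0.19 (SE, n = 6 against 6) with an adjusted p of 0.00508 (limma). Uri1, a prefoldin-like protein that binds a subunit shared by the RNA polymerases, gave 79.1, 51.4 and 74.6 in M off, 66.4, 72.2 and 67.1 in M on, 303.0, 246.2 and 232.6 in Z off, and 285.5, 287.4 and 174.9 in Z on with probe set 1433913_at. The difference was 1.89 ± 0.18 (SE, n = 6 against 6) with the same adjusted p of 0.00508 (limma). Taken by state, the log2 differences were 2.07 off and 1.90 on for Isoc2b and 1.95 off and 1.83 on for Uri1.

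Rps9, a protein of the small ribosomal subunit, was higher in Z with probe set 1434624_x_at. It read 54.8, 16.1 and 57.3 in M off, 56.4, 48.8 and 54.9 in M on, 483.3, 332.1 and 441.5 in Z off, and 520.5, 388.5 and 551.6 in Z on. The log2 difference was 3.33 ± 0.31 (SE, n = 6 against 6) with an adjusted p of 0.00508 (limma), at 3.48 off and 3.18 on. The suffix x marks probe sets of which some probes can bind other transcripts, and ribosomal protein genes have many near-identical copies, so the source of this signal is uncertain.

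Vps37c is a subunit of ESCRT-I, which sorts ubiquitin-tagged membrane proteins for breakdown in lysosomes. It read 83.3, 84.7 and 69.7 in M off, 113.9, 164.2 and 169.0 in M on, 214.5, 261.9 and 251.7 in Z off, and 220.6, 273.4 and 234.3 in Z on. The 2 Z groups overlapped, while all M on mice lay above the M off mice. The log2 difference was 1.17 ± 0.14 (SE, n = 6 against 6) with an adjusted p of 0.0223 (limma), at 1.62 off and 0.72 on. It was still called without Z off replicate 1, M on replicate 1 or M on replicate 3 and lost without any 1 of the other 9 arrays (adjusted p 0.0555 to 0.0883). It was also lost with line and state as additive terms (0.0808) and with line as the only term (0.132). Replicate number as a further term ended the call as well (0.0527).

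Serpina12, a serpin also known as vaspin, was called without parting the lines. It read 923.5, 955.7 and 494.8 in M off, 210.8, 272.2 and 217.4 in M on, 1477.3, 2063.9 and 1544.2 in Z off, and 1351.7, 714.7 and 884.8 in Z on. Within each state the Z mice were all above the M mice, but Z on overlapped M off. On the log2 scale, Z minus M was 1.59 ± 0.23 (SE, n = 6 against 6) with an adjusted p of 0.0466 (limma), at 1.14 off and 2.03 on. No single-array omission kept the call (adjusted p 0.0611 to 0.131), nor did quantile normalization (0.0543), median centring (0.0535), additive terms (0.0694) or line as the only term (0.328). Nor did replicate number as a further term (0.115).

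**Figure D2:**
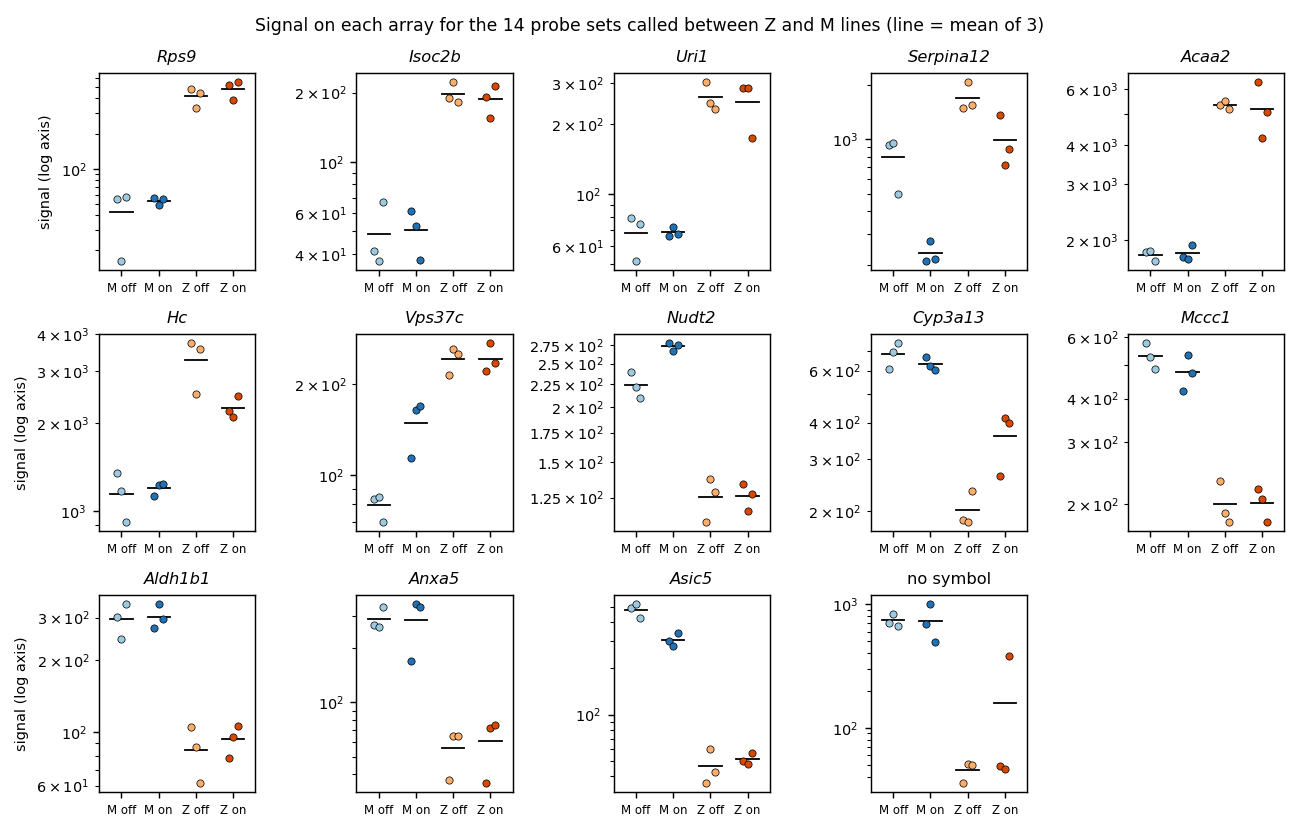
Signal on each of the 12 arrays (points, log axis, scale set per panel) for the 14 called members in M off, M on, Z off and Z on, with the mean of 3 as a line. In all panels but Serpina12 the 6 Z points lie wholly above or wholly below the 6 M points; the panel without a symbol has 1 Z on point at 378.2.

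The lowest adjusted p of all belonged to Asic5, a bile acid-sensitive sodium channel of the acid-sensing ion channel family. It read 493.3, 521.7 and 422.2 in M off, 300.8, 279.4 and 338.2 in M on, 36.0, 60.0 and 42.5 in Z off, and 50, 48.1 and 56.4 in Z on. All 6 Z signals were close to the median of an array. This was a log2 difference of -2.99 ± 0.15 (SE, n = 6 against 6) with an adjusted p of 7.69e-05 (limma). Asic5 was also the only member called in the on mice alone, at -2.57 (adjusted p = 0.00806, limma), beside -3.40 in the off mice. At an unadjusted p under 0.05, 460 members differed in the on mice.

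Mitochondrial enzymes were found on this side too. Aldh1b1, a mitochondrial aldehyde dehydrogenase, read 302.9, 244.7 and 341.9 in M off, 272.5, 341.9 and 294.9 in M on, 105.4, 86.8 and 61.5 in Z off, and 78.3, 95.2 and 106.6 in Z on. On the log2 scale, Z minus M was -1.77 ± 0.17 (SE, n = 6 against 6) with an adjusted p of 0.00508 (limma). Mccc1, the biotin-carrying subunit of methylcrotonyl-CoA carboxylase in leucine breakdown, read 576.1, 524.9 and 486.7 in M off, 421.3, 533.0 and 472.5 in M on, 233.3, 188.6 and 178.4 in Z off, and 221.4, 207.5 and 177.7 in Z on. The difference was -1.32 ± 0.13 (SE, n = 6 against 6), or 2.50-fold lower, with an adjusted p of 0.00508 (limma). The lines were apart in both states, at -1.83 off and -1.70 on for Aldh1b1 and -1.41 off and -1.23 on for Mccc1.

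Asic5, Aldh1b1 and Mccc1, together with Acaa2, Rps9, Uri1 and Isoc2b, kept their calls without each of the 12 arrays in turn. The remaining calls of lower signal rested on more of the arrays. Anxa5, which binds phosphatidylserine on membranes, read 266.8, 258.7 and 334.3 in M off, 168.1, 348.7 and 336.6 in M on, 37.4, 64.9 and 64.8 in Z off, and 35.8, 72.4 and 75.3 in Z on. Its log2 difference was -2.31 ± 0.27 (SE, n = 6 against 6) with an adjusted p of 0.0185 (limma), at -2.40 off and -2.22 on. Leaving out any 1 of the 3 M off arrays, or the second or the last of the M on arrays (replicates 2 and 3), ended the call, with adjusted p-values of 0.0567 to 0.0688.

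Nudt2, the hydrolase that cleaves diadenosine tetraphosphate, read 239.8, 221.7 and 209.6 in M off, 277.9, 266.2 and 275.4 in M on, 110.1, 137.5 and 128.4 in Z off, and 134.1, 116.8 and 127.4 in Z on. Its log2 difference was -0.98 ± 0.11 (SE, n = 6 against 6) with an adjusted p of 0.0162 (limma), at -0.84 off and -1.12 on. The call was lost without any 1 of the 3 M off arrays or M on replicate 2 (adjusted p 0.0555 to 0.0649). It was also lost with replicate number as a further term (0.0761). Cyp3a13 is a cytochrome P450 of the drug-metabolising 3A family. It read 607.9, 695.7 and 743.5 in M off, 664.3, 624.0 and 604.6 in M on, 186.3, 183.7 and 234.0 in Z off, and 262.9, 415.8 and 398.7 in Z on. The lines were apart in both states, but the Z on mice lay above the Z off mice. The difference was -1.30 ± 0.15 (SE, n = 6 against 6) with an adjusted p of 0.0174 (limma), at -1.77 off and -0.84 on. Leaving out any 1 of the 3 M off arrays, Z off replicate 2 or M on replicate 2 ended the call, with adjusted p-values of 0.0525 to 0.0688, as did additive terms (0.0609) and line as the only term (0.0689).

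Probe set 1420062_at, which has no symbol in the annotation used, read 710.9, 841.7 and 671.3 in M off, 689.7, 1007.1 and 492.2 in M on, 35.6, 50.9 and 50.1 in Z off, and 49.1, 46.6 and 378.2 in Z on. It was lower in all Z mice, but Z on replicate 3 lay far above the other Z mice. This was a log2 difference of -3.46 ± 0.49 (SE, n = 6 against 6) with an adjusted p of 0.0465 (limma), at -4.04 off and -2.88 on. The Z signals other than that of Z on replicate 3 were close to the median of an array. The size of the difference is therefore uncertain. The call held without Z on replicate 3 and was lost without any 1 of the other 11 arrays (adjusted p 0.0816 to 0.133), and also with quantile normalization (0.0522) or median centring (0.0515). Replicate number as a further term ended the call too (0.133).

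Several genes separated all arrays without being called, and they are given as values from the table of members that part; all were chosen for mention with their values known. Cyp7b1 encodes the oxysterol 7-alpha-hydroxylase of the alternative bile acid pathway and is higher in male than in female mouse liver. With probe set 1421074_at it had a lowest, median and highest signal of 463.7, 843.75 and 1411.7 in M and 1809.1, 2208.6 and 2717.4 in Z. A second probe set of Cyp7b1 ran from 340.4 to 1187.4 in M and from 1253.9 to 2278.3 in Z. The log2 differences were 1.39 and 1.27 (adjusted p 0.0801 and 0.143, limma), and both passed in the fit on members alone (adjusted p 0.00229 and 0.0103).

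Other members lower in all Z mice were Mrps15, a mitochondrial ribosomal protein, at -1.07 with probe set 1449294_at (adjusted p 0.0523, limma), and Echdc1, which removes a side product of fatty acid synthesis, at -0.96 (0.0533). Clec2h, a C-type lectin, ran from 135.4 to 198.1 in M and from 2.7 to 103.9 in Z, a difference of -2.98 that varied widely (adjusted p 0.245). The Mrps15 probe set ran from 129 to 167.8 in M and from 46.4 to 96.1 in Z. Clec2h and this Mrps15 probe set thus reached the limit on the mean signal through M only. The caution given for such called members applies to them, and the sizes of their differences are uncertain. The brightest Mrps15 probe set, 1456109_a_at, was at -0.26 (adjusted p = 0.606, limma). It overlapped between the lines, with 233.7 to 315.9 in M and 190.4 to 242.6 in Z. Nnt, the mitochondrial transhydrogenase that makes NADPH, was at -0.79 with probe set 1456573_x_at and at -0.61 with 1416105_at, and only the first parted the lines. Srebf1, which drives fatty acid synthesis, was at -0.74 (1516.1 to 2188.4 in M, 829.4 to 1490.3 in Z). Snhg6, the host transcript of a small nucleolar RNA, was at -1.13, with a median of 220.7 in M and 95.6 in Z.

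On the higher side, Chpt1, which makes phosphatidylcholine, was at 0.87 (196.4 to 262.5 in M, 351.0 to 521.8 in Z). Plbd1, a lysosomal phospholipase B-like protein, was at 0.82, and Ctss, the lysosomal protease cathepsin S, at 0.80. Adgrv1, an adhesion G protein-coupled receptor, was at 1.58 and Slco1a1, an organic anion transporter, at 1.08 with the probe set that parted. Adgrv1 ran from 46.7 to 73.4 in M and from 113.6 to 350.1 in Z. It thus reached the limit through Z only, and the size of its difference is uncertain. Each of the genes named in this and the preceding paragraph passed in the fit on members alone. That fit gave adjusted p-values of 0.00108 (Mrps15 and Echdc1) to 0.0284 (Srebf1) for the probe sets that parted. For Mrps15, Clec2h and Adgrv1 this carries the same caution, since the fit used members kept by the same limit.

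Parting was no function of size alone. Of 61 members that differed by 2-fold or more, 42 did not part the lines and 48 were not called. The albumin D-box protein Dbp, a clock output factor, differed by -2.75 but ran from 838.7 to 1555.9 in M and from 23.8 to 1385.3 in Z, so the lines overlapped.

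Some genes are read by more than 1 probe set, and these did not always give the same line difference. Within each array, the log2 ratio of a gene's other member probe sets to its brightest one was compared between the lines for 1768 pairs in 1264 genes. The ratio differed for 13 pairs, or 0.735%, in 11 genes (limma, Benjamini-Hochberg over the pairs), and for 261 at an unadjusted p under 0.05. In 9 of the 13 the probe sets pointed in opposite directions. In none of these 9 were both probe sets called, and some of the differences were near 0, such as -0.15 for Uri1 and -0.14 for Elavl1. Pairs with a wide gap are more likely to have opposite signs, and the share over all pairs was not counted. A ratio shows only that probe sets differed unequally. It does not say which of them reads the gene's RNA.

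Of the genes with called members, 3 were in this group. For Rps9, the brightest probe set, 1433689_s_at, had a lowest, median and highest signal of 1553.6, 1713.55 and 1859.5 in M and 1276.2, 1392.05 and 1802.2 in Z. Its difference was -0.25 against 3.33 for 1434624_x_at, and the ratio between them differed by 3.58 ± 0.31 (SE, adjusted p = 4.67e-05, limma, n = 6 against 6). Another, dim probe set of Rps9, 1426958_at, was lower in all Z mice, at -1.35 with a mean of 42.7. For Uri1, the brightest probe set ran from 231.7 to 384.5 in M and from 255.4 to 369.3 in Z. Its difference was -0.15 and that of another probe set -0.10, against 1.89 for 1433913_at. The ratio differed by 2.04 ± 0.18 (SE, adjusted p = 4.67e-05, limma, n = 6 against 6).

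For Acaa2 the order was the other way round, since the brightest probe set was the one that was higher in Z. Probe set 1428145_at ran from 1916.0 to 3062.4 in M and from 2128.0 to 2606.1 in Z, a difference of 0.06, and 1455061_a_at from 1359.0 to 2196.8 in M and from 1508.7 to 2343.2 in Z, a difference of 0.16. Their ratios to 1428146_s_at differed by -1.48 (adjusted p = 0.000239) and -1.38 (adjusted p = 0.00522, limma). Thus the signals for Acaa2, Rps9 and Uri1 were higher in Z by 1 of 3 probe sets each, and the other probe sets do not show the gene as a whole to differ.

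Pairs with opposite signs included Me1, the cytosolic malic enzyme that makes NADPH, at 0.68 with the brightest probe set and -0.92 with 1416632_at (ratio -1.60, adjusted p = 0.000603, limma). Slc25a51, a mitochondrial carrier, was at -0.74 and 0.70 (ratio 1.44, adjusted p = 0.00137). Slco1b2, the hepatic organic anion transporter that takes up bile acids, was at -0.36 with the brightest probe set, which read 2648.6 to 4438.0 in M and 2544.3 to 3497.4 in Z. Its other probe sets were at 0.73 and 1.40 (ratios 1.10 and 1.76, adjusted p 0.00810 and 0.0219). The remaining called pairs were Tm2d2 (ratio -1.14), Scd1, the stearoyl-CoA desaturase (0.91), Mrps15 (-0.81), Tmed7 (-0.78) and Elavl1 (0.66). Of 52 genes with several member probe sets and at least 1 that parted the lines, exactly 1 member probe set parted in 47 and all of them in 2. No gene had member probe sets that parted in opposite directions. With dim probe sets counted, Rps9 did, since 1426958_at was lower and 1434624_x_at higher in all Z mice.

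**Figure D3:**
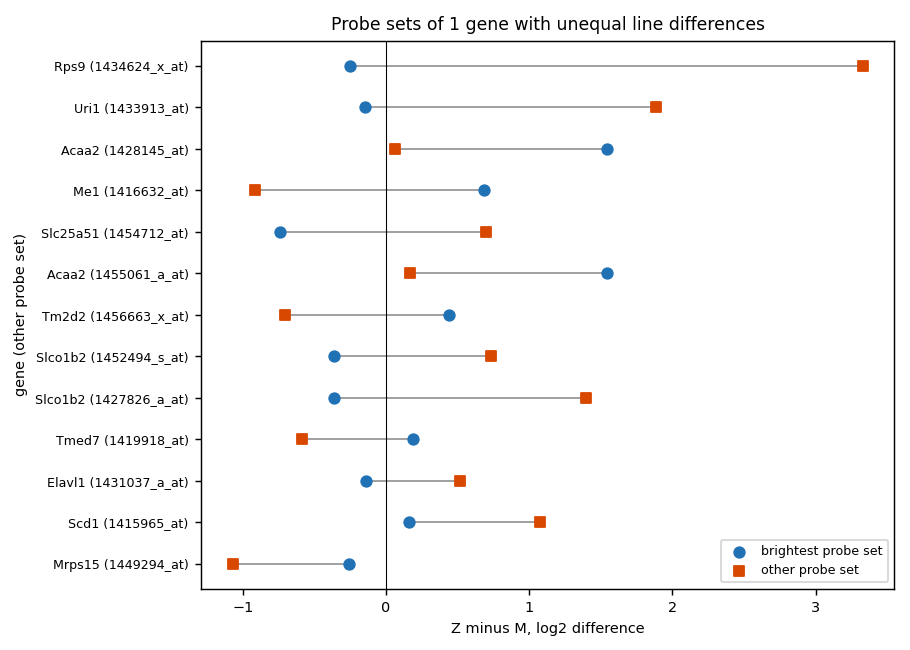
Log2 difference between the lines (horizontal axis) of the brightest probe set (blue circles) and the other probe set (orange squares) for the 13 pairs whose ratio differed between the lines, labelled by gene and other probe set. In 9 pairs the symbols lie on opposite sides of 0, and Rps9 has the widest gap, from -0.25 to 3.33.

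The pathways known for handling the Z protein were measured through lists of genes, each gene by its brightest member probe set. For comparison, 2165 of all 4689 genes, or 46.2%, had a difference above 0, the median was -0.02, and 89 genes, or 1.90%, parted the lines. Of 29 genes for ER chaperones and ER-associated degradation, 18 were above 0 and 11 below, the median was 0.06 and none was called. Hspa5, the main ER chaperone, read 3708.8 to 5090.3 in M and 3763.9 to 5845.9 in Z, a difference of 0.14 ± 0.14 (SE, n = 6 against 6). Dnajb9, an ER cochaperone, had the smallest p of that list, at 0.58 (adjusted p = 0.297, limma). Of 31 proteasome genes, 25 were above 0, with a median of 0.11 and no call; Psmd8, at 0.49, and Psmc4, at 0.25, parted the lines. Of 28 autophagy and lysosome genes, 17 were above 0 and none was called, with 2 that parted higher and 2 lower. Ulk2, a kinase related to the one that starts autophagy, was at 0.65, and the protease Ctsl was at -0.74 (1458.4 to 2543.3 in M, 1195.2 to 1442.7 in Z). Of 7 genes of the integrated stress response, 6 were below 0 (5 after quantile normalization), none was called and Vldlr, a lipoprotein receptor, parted the lines at -0.95. The pooled values include the off mice, in which the transgene was meant to be silent. Medians off and on were 0.06 and -0.04 for the ER list and 0.06 and 0.10 for the proteasome. They were 0.02 and 0.08 for autophagy and lysosome and -0.19 and -0.26 for the stress response. Over all genes they were -0.02 and -0.02.

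Among the metabolic lists, 18 of 19 cholesterol synthesis genes were above 0, with a median of 0.31 and no call. The median was 0.52 in the off mice and 0.14 in the on mice. Fdps, which makes farnesyl diphosphate, was at 0.85, Pmvk, phosphomevalonate kinase, at 0.83 and Idi1, the isomerase of the same pathway, at 0.72 (adjusted p 0.356, 0.169 and 0.222, limma). Of 22 genes for bile acid synthesis and transport, 14 were above 0 with a median of 0.13 and no call, but Cyp7b1 (1.39) and Cyp27a1 (0.57), enzymes of the alternative pathway, both parted the lines. Cyp27a1 read 1662.5 to 2005.8 in M and 2471.1 to 2980.7 in Z. Cyp8b1, which makes cholic acid, was at 1.21 and overlapped. Of 15 PPAR-alpha targets, 11 were below 0 and only Acaa2 was called, by the probe set with which the gene's other probe sets disagree.

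Of 25 cytochrome P450 genes of families 1 to 4, 17 were below 0 with a median of -0.08, and Cyp3a13 alone was called. Of 27 conjugation enzymes, 20 were above 0 (17 after centring arrays on their medians) with a median of 0.23 and no call. Of 14 genes more abundant in male than in female liver, 11 were above 0 with a median of 0.32 and no call; the highest was Elovl3, a fatty acid elongase, at 1.68 (adjusted p = 0.118, limma). Its signals were 373.5 to 1177.6 in M and 643.4 to 3953.0 in Z. Of the 23 genes listed as more abundant in female liver, only 1 was measured. This gene, Ntrk2, was also above 0, at 0.76 (adjusted p = 0.375, limma). Of 21 complement genes, 15 were above 0 and Hc was called; C6, a later component of the attack complex, was at 0.78 (adjusted p = 0.195). Of 11 serpins, 5 were above 0 (7 after quantile normalization) and Serpina12 was called. None of the lists not named here held a called gene.

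The most negative median of these lists belonged to the circadian clock genes, with 9 of 11 below 0, a median of -0.85 and no call. The median was -1.08 in the off mice and -0.12 in the on mice. Dbp was at -4.22 off and -1.29 on, and Nr1d2, a nuclear receptor that represses clock genes, at -1.61 off and -0.10 on. Nfil3, which binds the same DNA elements as Dbp as a repressor, was at 1.43 off and 1.57 on (adjusted p = 0.115 for the pooled difference, limma), with 44.0 to 130.6 in M and 113.1 to 306.2 in Z. All 9 extracellular matrix genes were below 0, with a median of -0.30 and no call. Tgfbi, at -0.48, parted the lines, and the collagen gene Col3a1, at -0.70, did not.

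**Figure D4:**
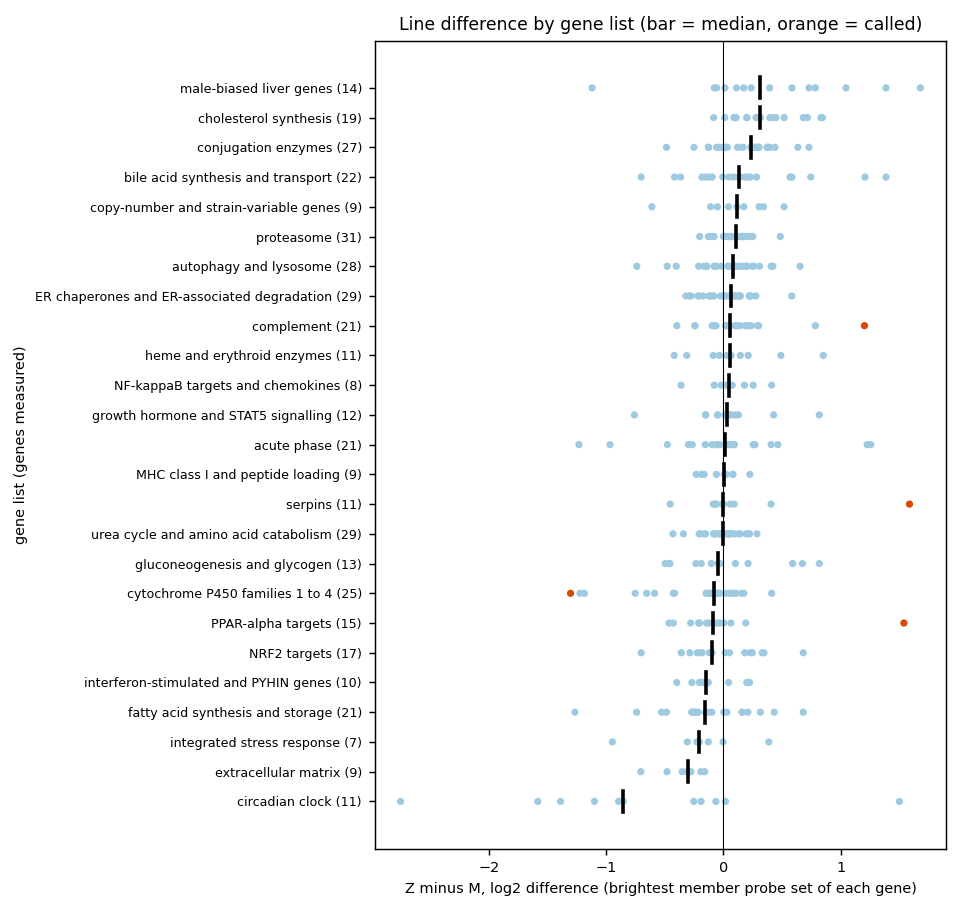
Log2 difference between the lines (horizontal axis) for the genes of each list with 7 or more measured genes (points, brightest member probe set; number measured in brackets), with the median as a bar and called genes in orange. Medians run from -0.85 for the circadian clock to 0.32 for the male-biased genes, and 4 points of these lists are called: Cyp3a13, Acaa2, Serpina12 and Hc.

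The order of genes along the RefSeq chromosomes (mouse assembly GRCm38.p6, used for names and order only) was compared with the members that part, for 4683 genes of which 119 part. Of these 119, 11 (9.24%) had a directly adjacent measured gene that also parted, against 219 of the other 4564 (4.80%). Within 3 genes on each side it was 30 (25.2%) against 13.1%, and within 5 genes 47 (39.5%) against 20.4%. These are shares with no test. Of the 13 called genes, 0 had a called gene directly adjacent. Mccc1 and Anxa5, both lower in Z, lay with 1 measured gene between them, and Rps9 and Isoc2b, both higher in Z, with 3 between them. Uri1 (1.89) stood between Nudt19 (0.89), which hydrolyses CoA and of which 2 probe sets parted the lines, and 1600014C10Rik (-0.60). Aldh1b1 (-1.77) stood beside Tdrd7 (-0.64). Fgfr1op2 (-0.65) and Tm7sf3 (-0.64), and Sgk3 (-0.48) and Snhg6 (-1.13), were adjacent pairs lower in Z, while Pcbp2 (-0.53) and Atp5g2 (0.26) were adjacent and opposite. Genes of these neighbouring groups, other than the called ones, were named after their values were seen.

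Whether the line difference depended on transgene state was tested as the difference between the on and the off contrast. No member was called (limma; the smallest adjusted p was 0.0624), against 296, or 4.18%, at an unadjusted p under 0.05. All 14 called members had the same sign and did not overlap within either state. For 13 of them this follows from parting all arrays, so it is no separate result. With 3 mice a group, 1605 members (22.7%) parted the lines in the off mice and 1084 (15.3%) in the on mice; 242 did so in both states in the same direction and 68 in opposite directions. In the off mice alone 10 members were called, 9 of them also in the pooled contrast.

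The tenth was Alas2, the first enzyme of heme synthesis in red cell precursors. It read 306.6, 254.2 and 262.0 in M off, 230.8, 252.1 and 253.9 in M on, 1456.1, 1259.1 and 1118.8 in Z off, and 210.7, 177.1 and 136.5 in Z on. Thus the Z off mice were above all M mice and the Z on mice below all of them. The log2 difference between the lines was 2.22 off (adjusted p = 0.00832, limma) and -0.51 on, and the change between them was -2.73 ± 0.28 (SE, adjusted p = 0.0624). The pooled value of 0.85 therefore describes neither state. The summed signal of 7 erythroid markers, Alas2 among them, was 1530.2 to 1886.3 in Z off and 465.0 to 645.8 in the other groups, mostly Alas2 itself. The other 6 summed to 411.4 to 463.3 in Z off and to 278.8 to 351.5 in the other groups, and none of them was called in the off mice. Hba-a1, which encodes a globin, reached at most 35.7 in Z off with the probe set used. Only 7 of the 13 listed erythroid markers had a usable probe set. Probe sets with several symbols were left out of the marker lists, so globin RNA that they read is not counted here. In bulk liver RNA, fewer cells of a type and less RNA per cell cannot be told apart.

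**Figure D5:**
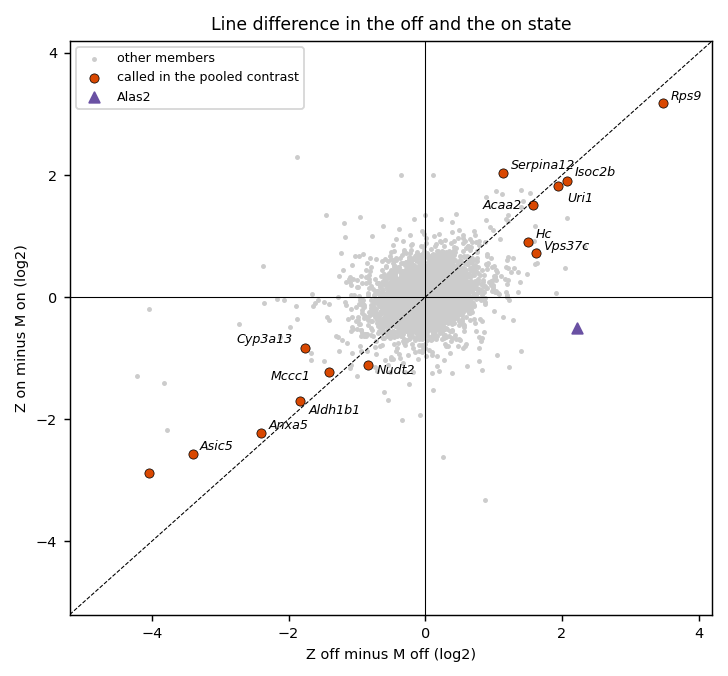
Log2 difference between the lines in the on mice (vertical axis) against that in the off mice (horizontal axis) for the members, with the 14 called members in orange and Alas2 as a triangle; the dashed line marks equal differences. The called members lie in the quadrants of equal sign, while Alas2 lies at 2.22 off and -0.51 on.

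Markers of other cell types were read beside these results, and none was called in any of 11 lists. The summed signal of 12 sinusoidal endothelial markers was 1173.9 to 1498.1 in M and 1405.7 to 1871.2 in Z, with 8 of 12 above 0. The 12 Kupffer cell and macrophage markers summed to 1964.6 to 2695.1 in M and 2326.4 to 2704.7 in Z, with 9 of 12 above 0. Of the defining cholangiocyte markers, Epcam reached at most 47.4, Krt19 48.1 and Krt7 28.6 on any array. The 10 skeletal muscle markers summed to 137.8 to 764.5 in M off and to at most 211.2 in the other groups. The part of these cell types in the line differences was not tested.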

How the data were processed

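Liver RNA of 12 mice was measured on 1-colour Affymetrix arrays. The deposited values are intensities, 1 linear signal per probe set and array. The submitters' processing notes name RMA, but the deposited intensities are linear and not equal in distribution, so the sources used here leave the software behind them unnamed. Detection calls and scanner files were not used here, and the number of arrays limits the precision.

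A signal of 0 was set to 0.1 and log2 was taken, with no further normalization. A mean for each of the 4 groups, which come from the sample titles, was fitted with limma 3.58.1 (R 4.3.3; lmFit, eBayes, both directions). The contrast was the average of Z off and Z on minus that of M off and M on. Benjamini-Hochberg adjustment ran over all 22626 probe sets, and members below an adjusted p of 0.05 are termed called. Adjusted p-values in the text come from this limma fit unless a fit on the members alone is named, and ± values are its standard errors. In a check, the fit recovered most of the large changes set in simulated data. Recovery of smaller ones was not required, so the check does not show the power for small differences. Gene names came from the platform annotation, with symbols looked up in RefSeq (GRCm38.p6). No symbol changed.

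Genes were named by this rule: called members with 1 symbol that part all arrays (up to 15 a direction), up to 4 genes of each list with the smallest p, genes with called probe set pairs (up to 12), neighbouring called genes, and called members with a called interaction. Others were named after their values were seen. The members and lists were chosen with earlier results of these data known. Alternatives were other scalings, pseudocounts, variance models, level limits and designs, and each array left out.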

Additional observations from a re-analysis of the deposited data

Results flagged for a closer look

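In 28 sets of 6 arrays (each called probe set in each line), 2 arrays stood far from the rest of their line; chance alone sets apart about 1 in 20 such sets. In the M line, Rps9 probe set 1434624_x_at read 16.1 in M off replicate 2, against 48.8 to 57.3 on the other M arrays. In the Z line, probe set 1420062_at, without a symbol, read 378.2 in Z on replicate 3, against 35.6 to 50.9 on the other Z arrays. The Rps9 call held without M off replicate 2, and the call of 1420062_at held only without Z on replicate 3 among the single-array omissions.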

How the results depend on the processing

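All 14 called members kept their direction in every alternative run, and of 2261 alternative values of 91 named results 2256 did. The reversed ones were Cyp2c55 in the off groups only (0.26), Plin2 (-0.012), Alas2 (-0.51) and Scd1 1415964_at (-0.16) in the on groups only, and Acaa2 1428145_at without M on replicate 2 (-0.0058; up to 0.16 without M on replicate 1). The counts of called members, 7 higher and 7 lower, became 67 and 74 with members only in the fit, 42 and 46 with an intensity trend and robust variances, 15 and 13 with 16 added to each signal, 32 and 35 with 50 added, and 4 and 4 at a mean of 200 or more. In the off groups only they were 6 and 4, in the on groups only 0 and 1. Quantile normalization, median centring, 1 probe set per gene, line and state as additive terms, line only, array weights and a mean of 50 or more kept both counts within 1.5 times, though Serpina12, Cyp3a13, Vps37c and 1420062_at each lost their call in some of these settings, as stated with those genes. With the replicate block they were 4 and 5, the calls of Hc (adjusted p 0.0928), Nudt2 (0.0761), Vps37c (0.0527), Serpina12 (0.115) and 1420062_at (0.133) being lost. The labels do not say what the numbers share: 4 of 18 same-numbered pairs of arrays correlated above 0.1 (r from -0.16 to 0.21), 6 of 12 arrays correlated best with their own number, and so the numbers were not taken as a pairing, but albumin was highest in replicate 1 and lowest in replicate 3 of all 4 groups. Leaving out 1 array gave 4 to 6 higher and 3 to 7 lower, the fewest without M off replicate 1. In the members-only fit it gave 34 to 79 higher and 35 to 87 lower, the fewest without M off replicate 1 and the most without Z off replicate 1. Members that part the lines, 54 higher and 78 lower, numbered 32 higher with median centring, 33 higher with 1 probe set per gene and 45 lower at a mean of 200 or more; without 1 array they were 62 to 102 higher and 86 to 128 lower, fewer arrays parting more easily. The interaction, called in 0 members, was called in 1 with median centring, array weights or 16 added, in 2 with the trend, members only or 50 added, and in 0 to 1 without 1 array. Called pairs of probe sets, 13, were 27 with array weights and 8 to 23 without 1 array, the fewest without M off replicate 2 and the most without Z off replicate 1. Where another cause is not named, the cause was not tested.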

Other observations

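Below the limit of 100, 6 further probe sets were called in the same fit (limma), and they rest on dim signals. Vcp, the ATPase that pulls misfolded proteins out of the ER, read 32.5 to 69.9 in M and 1.6 to 9.0 in Z with probe set 1457588_at (adjusted p = 0.0223), while its brightest probe set was at -0.32 (adjusted p = 0.498). Mndal, an interferon-inducible PYHIN gene, read 72.8 to 84.6 in M and 1.0 to 99.8 in Z with a median of 13.1 (adjusted p = 0.0180). The 2 states differed, with 1.0 to 3.1 in Z off and 23.1 to 99.8 in Z on. The log2 difference of Mndal was -5.49 off (adjusted p = 0.00832, limma) and -0.72 on (0.858). Pik3c2g, a phosphoinositide kinase of liver, read 18.9 to 33.5 in M and 52.9 to 89.1 in Z (adjusted p = 0.0379). Limd2 read 76.7 to 105.6 in M and 34.5 to 65.7 in Z (adjusted p = 0.0465). The other two, 1452590_a_at and 1417502_at, have no symbol in the annotation used, and were higher in Z by 1.03 and 1.63 on the log2 scale.

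Blvra and Blvrb, the 2 biliverdin reductases, both parted the lines in opposite directions without being called, at -0.31 and 0.49 on the log2 scale. For Dsg2, a desmosomal cadherin, 2 probe sets parted the lines, at -0.60 and -0.59.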
